A study of Mus musculus with 12 samples.

Results

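The cell cycle and DNA replication genes described here are 50 genes, taken by symbol from the 40847 rows of the deposited count table: 17 genes of S phase, 24 genes of G2 and mitosis (G2/M), 5 cyclins of G1 and 4 inhibitors of cyclin-dependent kinases (CDKs). They were measured by sequencing of polyadenylated RNA in FLAMs, the labels' name for alveolar-like macrophages of mouse that are grown from fetal liver with GM-CSF, and which the labels describe as a cell line. Every group was kept in GM-CSF at 30 ng/ml, so no group shows the cells without that growth factor. The 4 groups had 3 libraries each: untreated cells in GM-CSF alone, cells also given recombinant human TGFβ1 at 20 ng/ml (TGFβ), cells also given the TLR2 ligand Pam3CSK4 at 25 ng/ml for 18 h (Pam3), and cells given both (Pam3+TGFβ). Strain and age are not given in the labels, and nothing there says that the 3 libraries of a group came from separate cultures or animals, so the p-values measure the spread between these libraries, which may be technical.

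Cells copy their DNA in S phase and divide it in mitosis. D-type cyclins with CDK4 and CDK6, then E-type cyclins with CDK2, release E2F factors from retinoblastoma proteins, and E2F factors drive genes that license and run replication. Genes of G2 and mitosis are activated later, by MYBL2, FOXM1 and a complex at CHR elements in their promoters, while CDK inhibitors such as p21 (Cdkn1a), p27 (Cdkn1b), p15 (Cdkn2b) and p18 (Cdkn2c) hold the kinases back. Alveolar macrophages keep their numbers partly by dividing in the lung, GM-CSF is a growth signal for them, and TGFβ is known for arresting many epithelial cells in G1 through p15 and p21.

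The promoters of 4 members are shown as examples of the motif letters counted in the S phase genes (Mcm6) and the G2/M genes (Cdk1, Ube2c), and for Cdkn1a, the member with the largest fold change. Each run is the 150 bases before the annotated start of the canonical transcript, read 5′ to 3′ on the gene's strand from GRCm39 with GENCODE M39 starts, and capitals mark the matches on either strand that lie wholly within the run.
Mcm6, chr1:128287453-128287602 of GRCm39, minus strand: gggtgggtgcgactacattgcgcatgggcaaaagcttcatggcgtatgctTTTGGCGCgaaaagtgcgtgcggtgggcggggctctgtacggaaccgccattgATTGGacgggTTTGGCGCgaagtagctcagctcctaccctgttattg
Cdk1, chr10:69188769-69188918 of GRCm39, minus strand: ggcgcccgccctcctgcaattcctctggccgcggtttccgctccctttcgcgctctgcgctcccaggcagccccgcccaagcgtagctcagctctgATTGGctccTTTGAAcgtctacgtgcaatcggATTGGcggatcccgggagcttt
Ube2c, chr2:164611668-164611817 of GRCm39, plus strand: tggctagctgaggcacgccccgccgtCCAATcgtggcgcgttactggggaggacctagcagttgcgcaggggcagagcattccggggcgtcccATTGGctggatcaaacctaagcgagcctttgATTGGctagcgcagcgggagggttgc
Cdkn1a, chr17:29312588-29312737 of GRCm39, plus strand: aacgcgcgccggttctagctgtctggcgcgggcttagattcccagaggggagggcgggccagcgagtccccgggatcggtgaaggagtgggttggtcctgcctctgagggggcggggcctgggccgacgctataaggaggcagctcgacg
The motifs were searched on both strands, in a window of 300 bases (250 before the start and 50 after it): TTTGGCGC or TTTCCCGC for E2F factors, TTTGAA for the CHR, and CCAAT. Matches of different motifs may share bases at their ends. Mcm6, a subunit of the replicative helicase, holds 2 E2F matches in its window, starting 100 and 37 bases before the start, and 2 CCAAT matches, of which the one starting 4 bases before the start runs past the printed end and is not marked. Cdk1, the kinase of mitotic entry, holds 2 CHR matches, of which the one 45 bases before the start is in the printed run. Ube2c, the ubiquitin-conjugating enzyme of the anaphase-promoting complex, holds 6 CCAAT matches and 1 CHR match, the latter just after the start, and no motif was matched in the window of Cdkn1a. The E2F letters were found in 9 of 17 S phase promoters, or 52.9%, in 0 of 24 G2/M promoters, and in 2.96% of the 12038 promoters of tested protein-coding genes with 1 matching symbol in the annotation. The CHR letters were found in 12 of 24 G2/M promoters, or 50%, in 2 of 17 S phase promoters, and in 13.6% of those 12038, while CCAAT was found in 16 of 24 and 11 of 17 against 39.9%. These matches describe letters in a window and were not tied to binding.

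Library totals ran from 34036650 to 44374115 counts, and all 50 genes passed the filter on low counts that left 14749 genes, with at least 235 counts for every member in every library. The share of counts on mitochondrial genes set 5 libraries apart, at 0.348% to 0.596% against 0.068% to 0.113% in the other 7: untreated replicate 3, TGFβ replicates 1 and 3, and Pam3 replicates 2 and 3. None of the Pam3+TGFβ libraries was among them. The counts and medians of the S phase and G2/M genes are therefore also given without these 5 libraries. For the G1 cyclins and CDK inhibitors the medians are given. In that fit the TGFβ and Pam3 groups keep 1 library each and borrow the spread of the others. All 12 macrophage markers and all 8 alveolar macrophage markers reached 1 CPM in at least 1 library, and many moved with TGFβ. Without Pam3, TGFβ lowered 9 of 12 macrophage markers and raised 1 (edgeR, adjusted p under 0.05), against 28.1% of all tested genes lower and 22.9% higher, and with Pam3 it lowered 6 and raised 2, against 23.8% and 21.5%. Their response to Pam3 with TGFβ minus that without it was called above 0 for 10 of 12 and below 0 for 0, against 10.3% and 5.67%. Their summed level ran from 36000 to 40400 CPM in untreated, 20100 to 21100 CPM in TGFβ, 40100 to 41100 CPM in Pam3 and 31000 to 31500 CPM in Pam3+TGFβ libraries. The mean of Itgam, an integrin, went from 1090 CPM untreated to 38.7 CPM with TGFβ, and that of Lyz2, lysozyme, from 29800 to 15200 CPM. TGFβ raised 6 of 8 alveolar macrophage markers and lowered 2 both without and with Pam3, against the same shares of all genes, among them Krt79, with means of 0.147 and 52.5 CPM, and Fabp4, with 31.1 and 0.132 CPM; their summed level was 6060 to 6850 CPM untreated, 7680 to 8220 CPM with TGFβ, 7400 to 7820 CPM with Pam3 and 7570 to 7940 CPM with both. Of the 7 blood progenitor markers, Mpo was at 0 in every library and Kit, Flt3, Elane and Prtn3 had at most 7 counts in any library, while the summed level ran from 0.77 to 1.16 CPM in untreated, 23.8 to 30.4 CPM in TGFβ, 0.349 to 0.468 CPM in Pam3 and 12 to 14.6 CPM in Pam3+TGFβ libraries. Cd34 held most of that sum, with means of 0.761, 25.8, 0.291 and 12.5 CPM in the same order, and Gata2, the other progenitor marker that passed the filter, was at 0.102, 0.734, 0.105 and 0.599 CPM, both called higher with TGFβ in either setting. Neutrophil markers summed to 13.8 to 16 CPM untreated, 4.58 to 6.09 CPM with TGFβ, 16.8 to 17.4 CPM with Pam3 and 5.96 to 7.9 CPM with both. S100a8 held most of that sum, with means of 13.8, 3.06, 15.4 and 3.98 CPM in the same order. Of the 5 neutrophil markers tested, TGFβ without Pam3 raised 2 and lowered 1, against 22.9% and 28.1% of all genes (median log2 fold change 0.843). With Pam3 it raised 0 and lowered 1, against 21.5% and 23.8% (median 0.607). Dendritic cell markers summed to 4.47 to 5.62, 1.23 to 1.94, 3.87 to 5.23 and 1.69 to 2.51 CPM in the same order of groups. Markers of erythroid cells, of megakaryocytes and mast cells, of lymphocytes and of stroma and endothelium summed to at most 4.48 CPM in any library and those of hepatocytes to 10.1 CPM. The part of these marker shifts in the results was not tested. The comparisons of Pam3 and of TGFβ that start from untreated cells share the untreated libraries, as those that end in Pam3+TGFβ share its libraries. TGFβ without Pam3 and Pam3 with TGFβ share the TGFβ libraries, with opposite sign. Pam3 without TGFβ and TGFβ with Pam3 share the Pam3 libraries, also with opposite sign. In bulk RNA, fewer cycling cells and less of each mRNA per cycling cell cannot be told apart.

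Most S phase genes were called higher with TGFβ. Without Pam3, TGFβ raised 15 of 17 and lowered 0 (edgeR quasi-likelihood test, Benjamini-Hochberg adjusted p under 0.05 over all genes), where 51% of all tested genes were called, 22.9% higher and 28.1% lower. The median log2 fold change of the 17 was 0.508, against -0.008 over all genes. With Pam3 in both groups, TGFβ raised 11 of 17 and lowered 0, with a median of 0.304, against 45.3% of all genes called, 21.5% higher and 23.8% lower. E2f8 and Tyms were not called without Pam3, at log2 fold changes of 0.15 (adjusted p 0.169, edgeR) and 0.17 (adjusted p 0.134, edgeR). All 15 calls without Pam3 stood when any 1 library was left out, and 14 stood without the 5 libraries, where Tk1 had 0.27 (adjusted p 0.187, edgeR) and the median was 0.516. With Pam3, the call of Tk1 was lost without Pam3 replicate 1 (adjusted p 0.0943, edgeR), Pam3 replicate 2 (0.106), Pam3+TGFβ replicate 2 (0.131), Pam3+TGFβ replicate 3 (0.106) and the 5 libraries (0.0544), and that of Cdc45 without the 5 libraries (0.149), where 9 were called and the median was 0.303.

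The helicase subunits Mcm2 to Mcm7, which open the DNA at origins, all rose with TGFβ both with and without Pam3. Mcm2 was at 85.2, 83.1 and 79.7 CPM (counts scaled to a common library size, after TMM scaling) in untreated libraries, at 151, 153 and 149 CPM with TGFβ, at 84.8, 78.9 and 85 CPM with Pam3, and at 121, 130 and 129 CPM with both. Its TGFβ libraries were the highest, the Pam3+TGFβ libraries came next without overlap, and the untreated and Pam3 libraries overlapped. TGFβ raised it by 0.87 on the log2 scale (edgeR, SE 0.05, adjusted p 1.16e-13) without Pam3 and 0.61 (edgeR, SE 0.05, adjusted p 1.45e-10) with it. Mcm4 had nearly the same estimate as Mcm2 without Pam3, rising from 73.7, 69.7 and 66 CPM to 123, 130 and 132 CPM, or 0.88 on the log2 scale (edgeR, SE 0.0608, adjusted p 4.64e-12). Mcm7 stood lower, at 30.6, 32.9 and 27.1 CPM in untreated and 53.5, 56.4 and 50.4 CPM in TGFβ libraries, or 0.82 on the log2 scale (edgeR, SE 0.0733, adjusted p 6.1e-10). Over the 6 subunits, the TGFβ effect ran from 0.55 (Mcm5) to 0.88 without Pam3 and from 0.3 (Mcm3) to 0.61 with it, and in each the TGFβ libraries lay above their controls without overlap, as did those of 26.1% of all tested genes without Pam3 and 26.8% with it.

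The other S phase genes that rose with TGFβ without Pam3 had lower estimates than Mcm2 and Mcm4. Cdc6, which loads the helicase onto origins, was at 14.2, 9.55 and 13.4 CPM untreated and 20.1, 19.6 and 20 CPM with TGFβ, or 0.69 on the log2 scale (edgeR, SE 0.119, adjusted p 3.67e-05), and Cdt1, its partner in loading, rose by 0.5. Cdc45, part of the active helicase, rose by 0.51, and Pcna, the sliding clamp of the polymerases, also by 0.51. Of the genes that make DNA precursors, Tk1 (thymidine kinase) rose by 0.56, Rrm2 by 0.31 and Rrm1 by 0.26, the last pair being the subunits of ribonucleotide reductase. Rrm2 shares 43.3% of its exon length with a long non-coding RNA on the opposite strand. The activators E2f1 and E2f2 rose by 0.29 and 0.44 without Pam3, and were at 0.01 (adjusted p 0.889, edgeR) and -0.08 (adjusted p 0.401, edgeR) in the same comparison with Pam3. Tyms, thymidylate synthase, passed the threshold in the comparison with Pam3, from 12.3, 10.9 and 12.9 CPM to 16.6, 16.8 and 16.4 CPM (log2 fold change 0.47, SE 0.0939, adjusted p 0.000181, edgeR), while the interaction test of this difference gave 0.3 (adjusted p 0.142, edgeR).

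**Figure D1:**
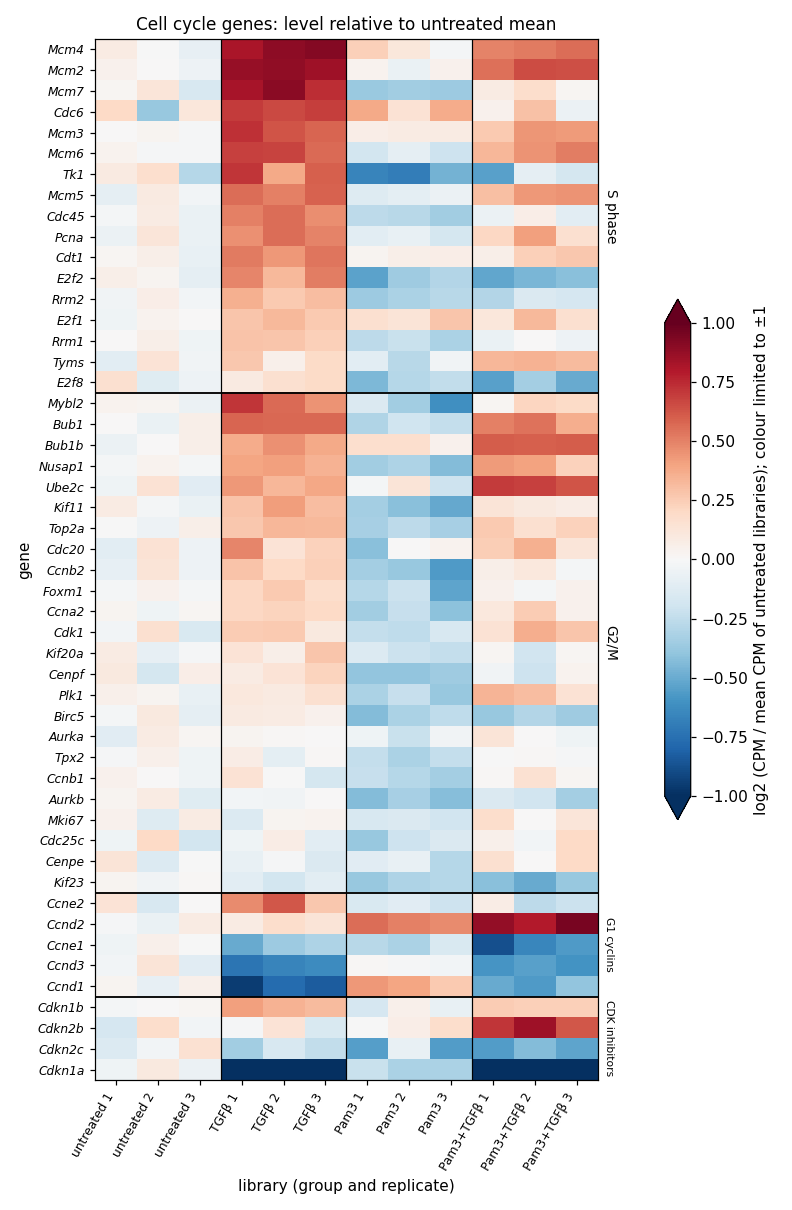
Level of each of the 50 genes (rows, ordered within each list by the TGFβ effect) in each of the 12 libraries (columns), as log2 of CPM over the mean CPM of the untreated libraries, with the colour limited to 1 in either direction. The S phase block is red in the TGFβ columns. In the Pam3+TGFβ columns many of its rows are paler red, and rows such as E2f2, E2f8, Rrm2 and Tk1 are blue. Most of the G2/M block is blue in the Pam3 columns, and Cdkn1a lies past the colour limit in all TGFβ columns.

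Pam3 lowered S phase genes both without and with TGFβ. Without TGFβ it lowered 8 of 17 and raised 1, against 18.3% of all genes called, 8.66% lower and 9.62% higher, with a median log2 fold change of -0.143. With TGFβ in both groups it lowered 15 of 17 and raised 0, against 38.5% of all genes called, 18.1% lower and 20.4% higher, with a median of -0.307. All 8 genes that fell without TGFβ were among the 15 that fell with it, namely E2f2, E2f8, Mcm6, Mcm7, Cdc45, Rrm1, Rrm2 and Tk1. E2f1 was the 1 gene called higher without TGFβ, at 0.19 (adjusted p 0.0322, edgeR), and that call was lost without untreated replicate 1 (0.101), untreated replicate 3 (0.0643), Pam3 replicate 1 (0.0559) or Pam3 replicate 3 (0.158). E2f8 lost its call without untreated replicate 1 (0.101) or Pam3 replicate 1 (0.0824), and Mcm6 without untreated replicate 1 (0.124), Pam3 replicate 1 (0.125) or Pam3 replicate 3 (0.129). With TGFβ, Mcm5 lost its call without Pam3+TGFβ replicate 1 (0.0823). The counts lower without the 5 libraries were 5 without TGFβ, where E2f8, Mcm6 and Cdc45 were lost, and 13 with it, where Mcm5 and Cdt1 were lost, and the medians -0.135 and -0.329. When 1 library was left out, the median without TGFβ ran from -0.161 (without untreated replicate 3) to -0.071 (without untreated replicate 2).

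E2f2 showed the largest Pam3 change among the S phase genes in cells with TGFβ, and Tk1 the largest in cells without it. E2f2 was at 61, 59.6 and 55.2 CPM untreated, 82, 73.5 and 83.4 CPM with TGFβ, 40.4, 45.9 and 47.8 CPM with Pam3, and 40.8, 42.6 and 43.8 CPM with both, so the groups with Pam3 overlapped each other and lay below both others. Its log2 fold change with Pam3 was -0.39 (edgeR, SE 0.0682, adjusted p 0.000127) without TGFβ and -0.91 (edgeR, SE 0.0681, adjusted p 3.67e-11) with it. Tk1 fell by 0.61 on the log2 scale without TGFβ (adjusted p 0.00171, edgeR) and by 0.82 with it (adjusted p 1.87e-05, edgeR). It had 433 to 1135 counts in a library and shares exon bases on the opposite strand with Syngr2, which had 88502 counts over all libraries, so reads of Syngr2 could be among its counts. Mcm7 fell from 53.5, 56.4 and 50.4 CPM with TGFβ to 32, 34.1 and 30.6 CPM with Pam3+TGFβ, or -0.73 on the log2 scale (edgeR, SE 0.0731, adjusted p 8.43e-09). The genes that did not pass the test with TGFβ were E2f1, at -0.08 (95% interval -0.21 to 0.04), and Tyms, at 0.16 (95% interval -0.02 to 0.34).

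The difference between the Pam3 responses was tested gene by gene as an interaction, the log2 fold change of Pam3 with TGFβ minus that without it, which uses all 4 groups. It was below 0 and called for 8 of 17 S phase genes and above 0 and called for 0, against 5.67% and 10.3% of all genes (15.9% in either direction), with a median of -0.259. The called genes were E2f1, E2f2, Mcm2, Mcm3, Mcm4, Mcm7, Cdc6 and Cdt1. Cdc6 had the largest estimate, at -0.88 (edgeR, SE 0.169, adjusted p 0.000555): Pam3 gave 16.1, 13.7 and 16 CPM against 14.2, 9.55 and 13.4 CPM untreated, and Pam3+TGFβ 12.8, 15.2 and 11.9 CPM against 20.1, 19.6 and 20 CPM with TGFβ. Its libraries overlapped in the first pair and not in the second. When 1 library was left out, the count of called genes ran from 6 to 9: E2f1 lost its call without Pam3 replicate 3 (adjusted p 0.109, edgeR), Pam3+TGFβ replicates 1 (0.0669) and 3 (0.053), untreated replicate 3 (0.0564) or TGFβ replicate 2 (0.0506), and Mcm7 without untreated replicate 3 (0.0608). Mcm4 alone was called without the 5 libraries, at -0.58 (adjusted p 0.00421, edgeR), while the median over the 17 was -0.233.

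**Figure D2:**
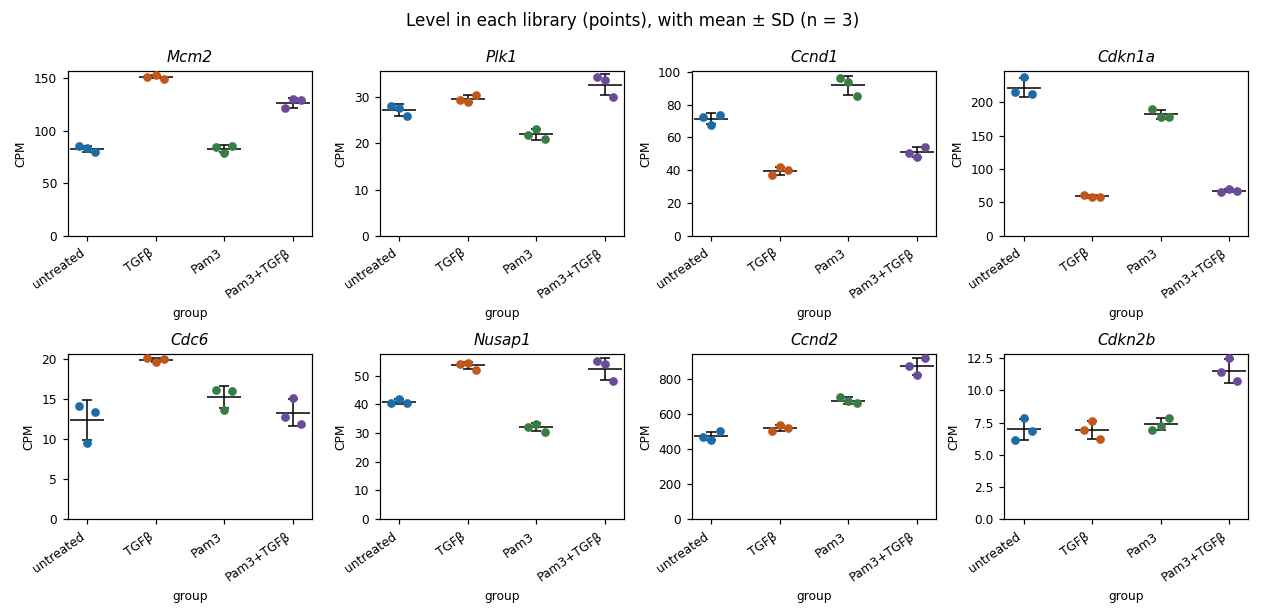
CPM of 8 genes in each library (points), by group, with the mean and SD of 3 libraries (bars), on axes that start at 0. Mcm2 and Cdc6 are highest with TGFβ, Plk1 and Nusap1 are lowest with Pam3 alone, Ccnd1 and Cdkn1a are lower in both TGFβ groups, and Cdkn2b is high in the Pam3+TGFβ group alone.

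A list of 44 other replication genes ran from origin recognition to DNA polymerases and chromatin copying. In each comparison most of its calls had the same direction as those of the S phase genes. For Pam3 without TGFβ 29 of the 44 were not called. TGFβ raised 28 and lowered 2 without Pam3 (63.6% and 4.55%, against 22.9% and 28.1% of all genes; median 0.341) and raised 19 and lowered 4 with it (43.2% and 9.09%, against 21.5% and 23.8%; median 0.155). Pam3 raised 4 and lowered 11 without TGFβ (9.09% and 25%, against 9.62% and 8.66%; median -0.071) and raised 3 and lowered 27 with it (6.82% and 61.4%, against 20.4% and 18.1%; median -0.272). The interaction was called above 0 for 0 and below 0 for 11, or 25%, against 10.3% and 5.67% of all genes. Dnmt1, the enzyme that copies DNA methylation, rose with TGFβ from 213 ± 11.3 to 414 ± 8.01 CPM (SD, n = 3), which is 0.96 on the log2 scale (adjusted p 1.39e-15, edgeR). Hells, a chromatin remodeller, rose by 0.9 and Timeless, a component of the replication fork, by 0.86. Timeless also rose with Pam3, by 0.36 without and 0.45 with TGFβ, and so went against most of the list. Cdc7 and its activator Dbf4, the kinase that fires origins, fell with TGFβ, by 0.31 and 0.18 on the log2 scale. Clspn, an adaptor of the replication checkpoint, fell with Pam3 by 0.38 without and 0.73 with TGFβ.

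Few replication histones passed the test in these libraries, whose preparation selects poly(A) tails that most histone mRNAs lack. Of 64 listed, 59 were tested. TGFβ without Pam3 raised 3 and lowered 3 (5.08% each, against 22.9% and 28.1% of all genes), with a median log2 fold change of 0.806 and 48 of 59 estimates above 0. Pam3 with TGFβ raised 0 and lowered 6 (10.2%, against 20.4% of all genes higher and 18.1% lower), with a median of -1.235 and 56 of 59 below 0, and the median interaction was -1.027 with 1 call above 0 and 0 below. Their summed level ran from 57.6 to 156 CPM and moved with the mitochondrial share: it was at 103 to 156 CPM in the 5 libraries with a high share and at 57.6 to 107 CPM in the 7 others. The part of that share in the histone values was not tested.

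The G2/M genes that TGFβ changed were also higher with it. Without Pam3, TGFβ raised 12 of 24 and lowered 0, against 22.9% of all genes higher and 28.1% lower, and the median log2 fold change was 0.184. In cells given Pam3 it raised 19 of 24 and lowered 0, against 21.5% higher and 23.8% lower, with a median of 0.356. All 12 were among the 19. The 7 others of the 19 were Mki67, Ccnb1, Cdc25c, Plk1, Cenpe, Cenpf and Tpx2, of which all but Cdc25c and Cenpf also had a called interaction. Those that passed neither test were 5 genes: Aurka, Aurkb, Birc5, Kif20a and Kif23. Kif20a, a motor of late mitosis, shares 54.8% of its exon length with Cdc23 on the opposite strand, and Aurka 25.2% with Fam210b. The strand setting of the counting is not given in the sources used here, so reads of such pairs cannot be told apart. The same holds for smaller overlaps on the opposite strand, such as 17.5% of Ccna2 with Exosc9, 15.2% of Ccne2 with Ints8, 10.6% of Cdc45 with Ufd1 and 9.45% of Tk1 with Syngr2. Cdc20 lost its call without Pam3 when untreated replicate 1 (adjusted p 0.096, edgeR), untreated replicate 3 (0.0932) or TGFβ replicate 1 (0.154) was left out, and Cdk1 without untreated replicate 3 (0.13 against 0.21, adjusted p 0.145). With Pam3, Cdc20 lost it without Pam3 replicate 1 (0.23 against 0.36, adjusted p 0.0944) or Pam3+TGFβ replicate 2 (0.0636), and Cdc25c without Pam3 replicate 1 (0.135), Pam3 replicate 2 (0.0522), Pam3+TGFβ replicate 1 (0.0542) or Pam3+TGFβ replicate 3 (0.149). Of these calls, 8 of the 12 and 16 of the 19 stood without the 5 libraries, with medians of 0.17 and 0.367. Those lost were Ccnb2 (adjusted p 0.144, edgeR), Cdk1 (0.123), Cdc20 (0.472) and Ube2c (0.0584) without Pam3, and Cdc25c (0.0572), Cenpe (0.121) and Mybl2 (0.0914) with it.

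Bub1 and Mybl2 had the highest estimates of the 24 for TGFβ without Pam3, and Bub1 and Nusap1 for TGFβ with it. Bub1, a kinase of the spindle checkpoint that marks kinetochores before they attach, was at 44.1, 42.2 and 46 CPM untreated, 65.9, 65.5 and 65.8 CPM with TGFβ, 35.8, 38.4 and 37.3 CPM with Pam3, and 62.5, 64.4 and 56.7 CPM with both. Every TGFβ library lay above every library without TGFβ, and Pam3 libraries were the lowest. TGFβ raised Bub1 by 0.58 (edgeR, SE 0.0607, adjusted p 1.23e-08) without Pam3 and 0.72 (edgeR, SE 0.0613, adjusted p 3.14e-10) with it. Bub1b, the checkpoint protein BubR1, rose by 0.4 and 0.48, and was the highest in the Pam3+TGFβ libraries, at 189, 188 and 189 CPM. Ube2c, whose promoter is printed above, went from 16.9, 19.2 and 16.1 CPM untreated to 23.5, 21.9 and 22.8 CPM with TGFβ, and from 17.2, 19 and 15.1 CPM with Pam3 to 28.3, 28 and 26.9 CPM with both, log2 fold changes of 0.39 (adjusted p 0.000625, edgeR) and 0.69 (adjusted p 3.22e-07, edgeR). Its call without Pam3 was lost without the 5 libraries (0.31, adjusted p 0.0584, edgeR). The transcription factors Mybl2 and Foxm1 rose by 0.58 and 0.22 without Pam3 and by 0.5 and 0.36 with it, where Mybl2 had 0.3 without the 5 libraries (adjusted p 0.0914, edgeR).

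Among the genes for chromosome structure and spindle, Top2a, the topoisomerase that untangles sister chromatids, rose with TGFβ by 0.31 without and 0.52 with Pam3. Nusap1, a spindle microtubule protein, was at 40.5, 41.9 and 40.5 CPM untreated, 54, 54.6 and 52.1 CPM with TGFβ, 32.3, 33.1 and 30.4 CPM with Pam3, and 55.2, 54.2 and 48.1 CPM with both. The TGFβ groups overlapped each other and lay above both groups without TGFβ. The motor Kif11, which separates the spindle poles, rose by 0.34 and 0.52. Mki67, the gene of the Ki-67 antigen, had 600, 533 and 617 CPM untreated and 530, 594 and 597 CPM with TGFβ, a log2 fold change of -0.02 (95% interval -0.14 to 0.09), and with Pam3 present TGFβ raised it by 0.27 (adjusted p 0.000618, edgeR). Kif23, a motor of cytokinesis, was lower with TGFβ in every library without passing the test, at -0.13 (adjusted p 0.0599, edgeR) and -0.11 (adjusted p 0.13, edgeR).

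**Figure D3:**
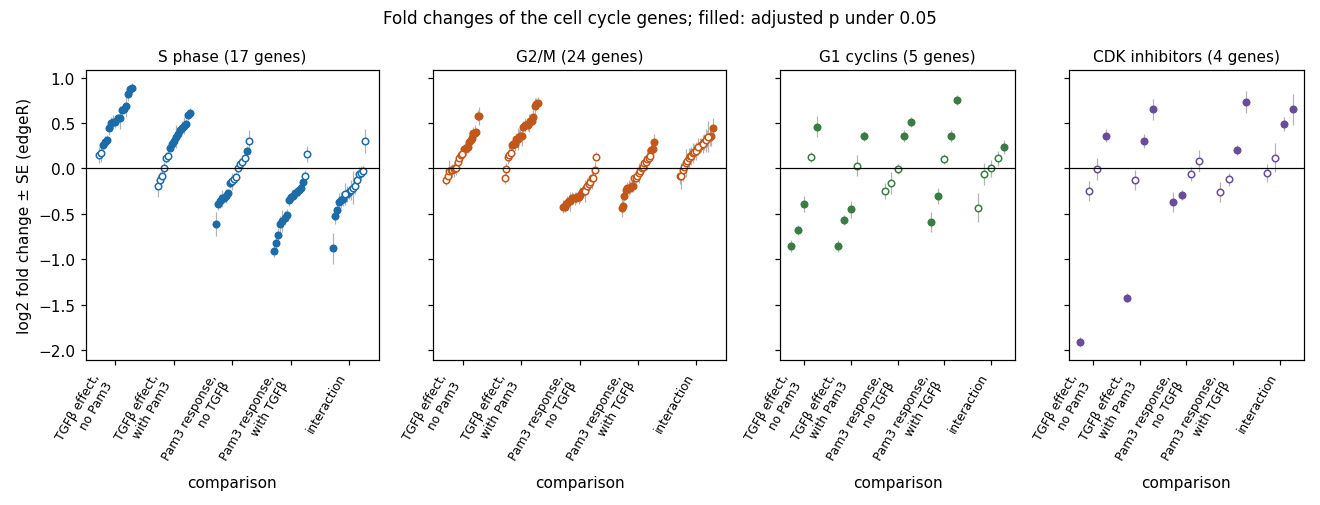
log2 fold change (points) ± SE of every gene in 5 comparisons, by list, with filled points for adjusted p under 0.05. S phase points lie above 0 for TGFβ without Pam3 and mostly below 0 for Pam3 with TGFβ, G2/M points lie below 0 for Pam3 without TGFβ with 1 exception, and Cdkn1a is the lowest point of the plot, at -1.91.

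Pam3 lowered most G2/M genes in cells without TGFβ, and had calls in both directions in cells with it. Without TGFβ it lowered 16 of 24 and raised 0, against 8.66% of all genes lower and 9.62% higher, with a median log2 fold change of -0.297, and 23 of the 24 estimates were below 0. With TGFβ it lowered 9, or 37.5%, and raised 3, or 12.5%, against 18.1% of all genes lower and 20.4% higher, with a median of -0.063, so the share that rose was below that of all genes. This median ran from -0.105 (without Pam3+TGFβ replicate 2) to -0.03 (without Pam3+TGFβ replicate 3) when 1 library was left out, and was -0.1 without TGFβ replicate 3. In both settings 8 fell. A further 8 passed the test in cells without TGFβ and not in cells with it, and the interaction was called for all of these but Cdk1 (0.27, adjusted p 0.0761, edgeR) and Bub1 (0.14, adjusted p 0.317, edgeR). Kif20a passed it in cells with TGFβ (-0.21, adjusted p 0.0432, edgeR) and not in cells without it (-0.19, adjusted p 0.111, edgeR), and its interaction was -0.02 (adjusted p 0.955, edgeR). Of the 12 calls with TGFβ, 5 stood when any 1 library was left out. Of the 9 lower, Ccnb2, Aurkb, Kif20a, Cenpf and Foxm1 lost theirs in at least 1 such fit, with the highest adjusted p, 0.174 in edgeR, for Kif20a without Pam3+TGFβ replicate 2. The 3 that rose with TGFβ present were Bub1b, by 0.21 (adjusted p 0.000933, edgeR), Ube2c, by 0.29 (adjusted p 0.0101, edgeR), and Cenpe, by 0.2 (adjusted p 0.0335, edgeR). Ube2c lost that call without TGFβ replicate 2 (0.0567) or Pam3+TGFβ replicate 1 (0.0512), and Cenpe without TGFβ replicate 1 (0.11), TGFβ replicate 3 (0.202), Pam3+TGFβ replicate 1 (0.16) or Pam3+TGFβ replicate 3 (0.215), and without Pam3+TGFβ replicate 1 the count higher was 1. Without the 5 libraries, 7 were lower without TGFβ, 4 were lower and 0 higher with it, and the medians were -0.298 and -0.084. The 9 lost without TGFβ were Ccnb1 (adjusted p 0.232, edgeR), Cdk1 (0.0978), Bub1 (0.155), Plk1 (0.091), Cenpf (0.124), Tpx2 (0.0966), Nusap1 (0.0587), Foxm1 (0.101) and Mybl2 (0.578), and the lower calls lost with it were Ccnb2 (0.275), Aurkb (0.188), Kif20a (0.551), Cenpf (0.231) and Foxm1 (0.0654).

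The lowest estimates for Pam3 in cells without TGFβ were those of Ccnb2 and Kif11. Ccnb2, a cyclin of mitotic entry, fell from 50.4, 58.3 and 51.5 CPM to 42.3, 41 and 36 CPM, or -0.42 on the log2 scale (edgeR, SE 0.0687, adjusted p 5.03e-05). Kif11 fell from 46.9, 43.7 and 42.5 CPM to 35.1, 33.3 and 31.1 CPM, also by 0.42 on the log2 scale. Aurkb and Birc5, which act together in the chromosomal passenger complex, fell by 0.39 and 0.33, and Cenpf, of the kinetochore, by 0.38 (adjusted p 0.124 without the 5 libraries, edgeR). In each of these 5 genes the 3 Pam3 libraries lay below the 3 untreated libraries, as in 15.8% of all tested genes. Cdk1 fell by 0.22 (adjusted p 0.0414, edgeR), a call that was lost without any 1 of untreated replicates 1 (0.0723) and 2 (-0.13, 0.225), Pam3 replicates 1 (0.134), 2 (0.14) and 3 (0.0502) and Pam3+TGFβ replicate 3 (0.0533). Ccnb1 lost its call without untreated replicate 1 (0.0554) or Pam3 replicate 3 (0.063), and Mybl2 without untreated replicate 1 (0.055) or Pam3 replicate 3 (0.127). Of the 8 that missed the threshold, Kif20a and Cenpe had adjusted p-values of 0.111 and 0.166 (edgeR), and Mki67 was at -0.17 (adjusted p 0.0535, edgeR) and Bub1b at 0.13 (adjusted p 0.0641, edgeR).

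The interaction ran the other way from that of the S phase genes. It was called above 0 for 8 of 24 G2/M genes and below 0 for 0, against 10.3% and 5.67% of all genes, with a median of 0.198. Plk1, a kinase of mitotic entry and spindle assembly, had the largest estimate, at 0.45 (edgeR, SE 0.107, adjusted p 0.00378). It was at 28.1, 27.7 and 25.8 CPM untreated and 21.9, 23.2 and 20.9 CPM with Pam3, a fall of 19.1%, and at 29.3, 29 and 30.4 CPM with TGFβ and 34.4, 33.6 and 30.1 CPM with both, a rise of 10.6% that did not pass the test (adjusted p 0.135, edgeR). The 7 others were Ccnb1 (0.36), Cenpe (0.35), Nusap1 (0.33), Mki67 (0.29), Tpx2 (0.26), Ccna2 (0.25) and Top2a (0.21). The count depended on single libraries: it was 1 without Pam3+TGFβ replicate 1, 2 without TGFβ replicate 3, 3 without untreated replicate 1 or Pam3+TGFβ replicate 3, 4 without TGFβ replicate 1 or 2, and 5 without Pam3 replicate 3 or Pam3+TGFβ replicate 2. Plk1 was the 1 call that stood in all 12 of those fits. Without the 5 libraries 0 were called (Plk1 0.51, adjusted p 0.0838, edgeR) and the median was 0.185, and with upper-quartile scaling 4 were called.

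**Figure D4:**
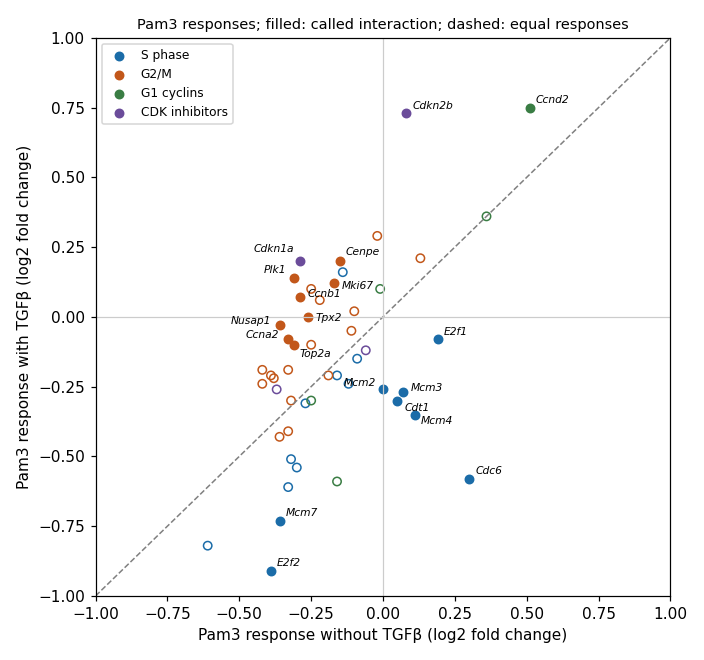
log2 fold change of Pam3 without TGFβ (x axis) against that with TGFβ (y axis) for the 50 genes, coloured by list, with named, filled points where the interaction was called and a dashed line of equal responses. The 8 called S phase genes lie below the line and the 8 called G2/M genes above it, with Cdc6 farthest below and Cdkn2b farthest above.

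In a list of 54 other mitosis genes, most calls for single treatments had the same direction as those of the G2/M genes. Pam3 without TGFβ raised 1 and lowered 29 (1.85% and 53.7%, against 9.62% and 8.66% of all genes; median -0.238), and with TGFβ raised 1 and lowered 23 (1.85% and 42.6%, against 20.4% and 18.1%; median -0.182). TGFβ raised 21 and lowered 2 without Pam3 (38.9% and 3.7%, against 22.9% and 28.1%; median 0.114) and raised 30 and lowered 0 with it (55.6%, against 21.5% higher and 23.8% lower; median 0.249). The interaction was called above 0 for 9 and below 0 for 3 (16.7% and 5.56%), near the 10.3% and 5.67% of all genes, with a median of 0.109. Pttg1, securin, the inhibitor of separase, was the 1 gene of the list that rose with Pam3 in the presence of TGFβ, from 12.6 ± 1.33 to 29.6 ± 1.28 CPM (SD, n = 3), which is 1.23 on the log2 scale (adjusted p 2.56e-11, edgeR), and its interaction was 1.01 (adjusted p 1.95e-06, edgeR). Cdc25a, the phosphatase that acts already at the G1/S step, rose with TGFβ from 37.8 ± 2.63 to 72.9 ± 1.62 CPM (log2 fold change 0.95, adjusted p 6.43e-13, edgeR), and was also the 1 gene that rose with Pam3 without TGFβ, by 0.28. Ncapd2, of condensin, fell with Pam3 by 0.56 without and 0.61 with TGFβ. Kif14 and Melk, at interactions of 0.51 and 0.44, fell with Pam3 in cells without TGFβ, by 0.44 and 0.41, and were at 0.07 and 0.03 in cells with it.

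The G1 cyclins did not move together. TGFβ lowered 3 of 5 and raised 1 without Pam3, against 28.1% of all genes lower and 22.9% higher, and lowered 3 and raised 1 with it, against 23.8% and 21.5%, so the share that rose, 20%, was near that of all genes. Pam3 raised 2 and lowered 0 without TGFβ, against 9.62% higher and 8.66% lower, and raised 2 and lowered 2 with it, against 20.4% and 18.1%. Without the 5 libraries the median TGFβ effect on the 5 cyclins was -0.34 without and -0.4 with Pam3. With all libraries it was -0.389 and -0.445. The median Pam3 response was -0.03 without and 0.07 with TGFβ, against -0.01 and 0.096 with all libraries. Ccnd1, cyclin D1, was at 72.7, 67.6 and 73.8 CPM untreated, 37, 41.9 and 40.2 CPM with TGFβ, 96.4, 93.8 and 85.4 CPM with Pam3, and 50.4, 48.1 and 54.4 CPM with both. The 4 groups did not overlap. TGFβ lowered it, at -0.85 on the log2 scale (edgeR, SE 0.0658, adjusted p 4.27e-11) without and -0.85 (edgeR, SE 0.0651, adjusted p 4.12e-11) with Pam3, and Pam3 raised it by 0.36 in both settings (adjusted p 0.000153 without and 7.8e-05 with TGFβ, edgeR). Its interaction was 0 with a 95% interval of -0.18 to 0.18, and without the 5 libraries the Pam3 response with TGFβ was 0.27 (adjusted p 0.054, edgeR). Ccnd1 shares 48.4% of its exon length with LTO1 on the opposite strand, so its counts carry the limit named for Kif20a.

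Ccnd2, cyclin D2, was the most abundant of the 5 per kilobase and rose with Pam3. Its libraries were at 468, 452 and 500 CPM untreated, 500, 535 and 516 CPM with TGFβ, 696, 670 and 658 CPM with Pam3, and 872, 820 and 914 CPM with both, so the untreated and TGFβ groups met at 500 CPM while the other groups lay apart and higher. TGFβ raised it by 0.36 in cells with Pam3 (edgeR, SE 0.0536, adjusted p 3.2e-06). In cells without Pam3 its TGFβ effect missed the threshold, at 0.13 (edgeR, SE 0.0536, adjusted p 0.0511). Pam3 raised it by 0.51 (edgeR, SE 0.0537, adjusted p 8.36e-08) without and 0.75 (edgeR, SE 0.0538, adjusted p 1.56e-11) with TGFβ. The interaction was 0.24 (edgeR, SE 0.0757, adjusted p 0.0324). That interaction was lost in 8 of the 12 leave-one-out fits, with 0.18 without Pam3+TGFβ replicate 3 (adjusted p 0.167, edgeR), and was 0.08 without the 5 libraries. Ccnd3, cyclin D3, fell with TGFβ from 119, 132 and 112 CPM to 73, 76.4 and 78.3 CPM (log2 fold change -0.68, SE 0.0559, adjusted p 1.38e-10, edgeR) and did not pass the test for Pam3. The E-type cyclins parted: Ccne1 fell with TGFβ by 0.39 without (adjusted p 0.0673 without the 5 libraries, edgeR) and 0.45 with Pam3, while Ccne2, with an interaction that missed the threshold (-0.43, adjusted p 0.0749, edgeR), rose by 0.46 without Pam3 and was at 0.03 with it. Pam3 lowered both in cells with TGFβ, Ccne1 by 0.3 (adjusted p 0.00862, edgeR; 0.0533 without Pam3+TGFβ replicate 1 and 0.0778 without the 5 libraries) and Ccne2 by 0.59 (adjusted p 0.000155, edgeR).

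Of the CDK inhibitors, Cdkn1a, which codes for p21, fell with TGFβ and had the largest change of the 50 genes. It was at 216, 238 and 213 CPM untreated, 61.8, 57.6 and 57.5 CPM with TGFβ, 190, 178 and 178 CPM with Pam3, and 65.4, 70.4 and 67.7 CPM with both. The TGFβ groups lay far below both groups without TGFβ, and each Pam3 group lay apart from its control. TGFβ lowered it, at -1.91 on the log2 scale (edgeR, SE 0.054, adjusted p 5.67e-20), or by 73.5%, without Pam3, and at -1.42 (edgeR, SE 0.0533, adjusted p 2.47e-17) with it. Pam3 lowered it by 0.29 on the log2 scale in cells without TGFβ (adjusted p 0.000173, edgeR) and raised it by 0.2 in cells with it (adjusted p 0.0038, edgeR), an interaction of 0.49 (edgeR, SE 0.0743, adjusted p 2.42e-05) that was called in every alternative. Without the 5 libraries these Pam3 responses were -0.25 (adjusted p 0.0863, edgeR) and 0.22 (adjusted p 0.0672, edgeR), and the interaction 0.48 (adjusted p 0.0229, edgeR).

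The other inhibitors each had a pattern of their own. Cdkn2b, which codes for p15, was at 6.18, 7.87 and 6.84 CPM untreated and 6.89, 7.65 and 6.26 CPM with TGFβ (log2 fold change -0.01, 95% interval -0.24 to 0.23). It rose to 11.4, 12.5 and 10.7 CPM with Pam3+TGFβ against 6.94, 7.27 and 7.88 CPM with Pam3, or 0.65 on the log2 scale (edgeR, SE 0.118, adjusted p 5.91e-05), and Pam3 raised it by 0.73 in cells with TGFβ (edgeR, SE 0.117, adjusted p 1.53e-05). The interaction was 0.65 (edgeR, SE 0.169, adjusted p 0.00772), and 0.59 (adjusted p 0.262, edgeR) without the 5 libraries. Cdkn1b, which codes for p27, rose with TGFβ from 23.8, 24.2 and 24.4 CPM to 32.1, 30.7 and 30 CPM, by 0.36 (adjusted p 0.00021, edgeR), and by 0.3 with Pam3 (adjusted p 0.0014, edgeR), without overlap in either. Cdkn2c, which codes for p18, fell with Pam3 without TGFβ by 0.37 (adjusted p 0.0189, edgeR) with overlapping libraries, and lost this call without untreated replicate 3 (0.0897), Pam3 replicate 1 (0.129) or Pam3 replicate 3 (0.115). Over the 4 inhibitors, TGFβ raised 1 and lowered 1 without Pam3, against 22.9% and 28.1% of all genes. With Pam3 it raised 2 and lowered 1, against 21.5% and 23.8%. Pam3 lowered 2 and raised 0 without TGFβ, against 8.66% of all genes lower and 9.62% higher. With TGFβ it raised 2 and lowered 0, against 20.4% higher and 18.1% lower. Without the 5 libraries the median TGFβ effect was 0.05 without and 0.24 with Pam3, against -0.128 and 0.086 with all libraries. The median Pam3 response was -0.205 without and 0.05 with TGFβ, against -0.176 and 0.042. For Cdkn2c the Pam3 response with TGFβ was -0.36 without the 5 libraries, against -0.26 with all.

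Other regulators of G1 were called in both directions. Of 27 listed, 26 were tested, and TGFβ raised 7 and lowered 7 without Pam3 (26.9% each), near the 22.9% and 28.1% of all genes, and raised 8 and lowered 10 with it (30.8% and 38.5%, against 21.5% and 23.8%). Pam3 raised 2 and lowered 8 without TGFβ (7.69% and 30.8%, against 9.62% and 8.66%) and raised 4 and lowered 12 with it (15.4% and 46.2%, against 20.4% and 18.1%). Cdkn2a, the locus of p16 and p19ARF, fell with TGFβ from 37.2 ± 3.14 to 10.3 ± 1.55 CPM (SD, n = 3), which is -1.85 on the log2 scale (adjusted p 9.28e-14, edgeR), and by 1.79 with Pam3. Cdk2, the partner of E-type cyclins, rose with TGFβ by 0.61, and Rbl1 and Tfdp1, a pocket protein and the E2F partner, by 0.53 and 0.52. Cdk6, a partner of D-type cyclins, rose in all 4 comparisons, by 0.25 to 0.37. Mxd4 and Tob1, which oppose proliferation, fell in all 4: Mxd4 went from 44.7 ± 5.91 CPM untreated to 27.1 ± 2.36 with TGFβ, 28.9 ± 0.193 with Pam3 and 9.68 ± 0.883 CPM with both, and its interaction was -0.86 (adjusted p 2.87e-05, edgeR). Mxd1, of the same family as Mxd4, went the other way: Pam3 raised it in cells with TGFβ from 18.8 ± 1.54 to 31.8 ± 1.62 CPM, by 0.76 (adjusted p 4.38e-08, edgeR), and its interaction was 0.77 (adjusted p 3.03e-05, edgeR).

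Because Cdkn1a is a target of p53, a list of 20 other p53 targets was counted, of which 19 were tested. TGFβ raised 4 and lowered 9 without Pam3 (21.1% and 47.4%, against 22.9% and 28.1% of all genes; median -0.287) and raised 5 and lowered 11 with it (26.3% and 57.9%, against 21.5% and 23.8%; median -0.453). Plk2, a kinase of centriole duplication, fell with TGFβ from 54.3 ± 0.693 to 5.97 ± 0.493 CPM (SD, n = 3), which is -3.19 on the log2 scale (adjusted p 1.56e-20, edgeR), and Tnfrsf10b, a death receptor, by 2.32. Perp and Plk3 rose with TGFβ, by 0.67 and 0.72. Pam3 raised 0 and lowered 8 without TGFβ (42.1% lower, against 9.62% of all genes higher and 8.66% lower) and raised 7 and lowered 9 with it (36.8% and 47.4%, against 20.4% and 18.1%). Gadd45a, which responds to DNA damage and stress, rose with Pam3 in cells with TGFβ from 4.4 ± 0.785 to 14.8 ± 0.471 CPM, by 1.74 (adjusted p 3.34e-11, edgeR).

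Levels were compared between genes per kilobase of exon, with the exons of all annotated transcripts of a gene merged. Exons that these cells do not use lower such a value, so the order of genes is approximate. In untreated cells Mki67 stood highest of the 50, at 56.8 ± 4.3 CPM per kb (SD, n = 3), followed by Ccnd2 at 50.3 ± 2.63, Cdkn1a at 36.8 ± 2.27, Pcna at 29.2 ± 2.16 and Bub1b at 26.8 ± 1.06 CPM per kb, and the SD ranges of Mki67 and Ccnd2 overlapped, as did those of Pcna and Bub1b. Cdc25c, Ccne2 and Tyms stood lowest, at 1.39 ± 0.188, 1.76 ± 0.186 and 2.04 ± 0.174 CPM per kb, with overlap between each and the next. With Pam3+TGFβ the highest was Ccnd2, at 92.3 ± 5 CPM per kb, and with TGFβ Cdkn1a came down to 9.76 ± 0.408 CPM per kb. By group, 16 of 17 S phase genes had their highest mean with TGFβ alone and 0 their lowest, against 30.2% and 29.4% of all tested genes. Of the 24 G2/M genes, 21 had their lowest mean with Pam3 alone, against 21.7% of all genes, and the highest was TGFβ alone for 12 and Pam3+TGFβ for 9, against 30.2% and 24.6%. The first 2 principal components of the 50 genes held 67.3% and 20.0% of their variance, and the 4 groups did not overlap on the first, in the order TGFβ, Pam3+TGFβ, untreated and Pam3.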

How the data were processed

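Gene counts were deposited by the authors as raw counts per gene symbol for 12 libraries, with a table of normalized values whose signal equals the raw counts over 1 scaling factor for each library, as tested on the deposited files. The submitters' processing notes name bcl2fastq 2.20.0, FastQC 0.11.7, Bowtie2 2.4.1, featureCounts in Subread 2.0.0, DESeq2 1.36.0, R 4.2.1 and GRCm39. Bowtie2 does not split reads across introns, so reads over exon junctions may be lost. The annotation, the strand setting and the treatment of reads with several matches are not given in the sources used here, and Pcna, Tyms, Ccnb1, Ccnb2 and Ccnd3 have annotated pseudogenes that could share reads. The labels name a stranded mRNA kit.

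From the counts, edgeR 4.0.16 in R 4.3.3 was run with TMM scaling, the filterByExpr filter (minimum count 10) and robust quasi-likelihood tests on all 4 groups, for 5 contrasts: Pam3 without and with TGFβ, TGFβ without and with Pam3, and their interaction. P-values were adjusted by Benjamini-Hochberg over 14749 genes, threshold 0.05. Intervals are approximate 95% intervals of the fitted log2 fold change, taken from its SE and the normal distribution. They can be narrower than the quasi-likelihood test would give. CPM used TMM-scaled sizes, and CPM per kb the merged exon length in GENCODE M39. Alternatives were DESeq2 1.42.0, 2 other scalings, 2 other filters, limma 3.58.1 on log2 of the deposited normalized values plus a pseudocount of 1, a replicate block, fits of 6 libraries and leaving out libraries. The steps were tested on simulated data for TGFβ without Pam3, with changed genes drawn at random from those that passed the filter. Of changes of 1.2-fold 19.7% were called, of 1.5-fold 57.1% and of 2-fold 80%, so small changes were often missed there. Members and lists were chosen with earlier results of these data known. All 50 members could be named. From each other list up to 3 genes per contrast and direction could be, if called, without overlap between libraries, with at least 10 counts and by largest change; other values of a named gene are given beside it. No pair of libraries was alike within sampling noise.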

Additional observations from a re-analysis of the deposited data

Results flagged for a closer look

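For 19 of the 50 genes, TGFβ changed the response to Pam3 by the interaction test in edgeR at an adjusted p under 0.05. Of these, 11 were above 0 and 8 below, or 22% and 16% of the 50. Of all tested genes 15.9% were called, 10.3% above 0 and 5.67% below. Values are the log2 fold change of Pam3 with TGFβ minus that without it. Among S phase genes the difference was -0.28 for E2f1, -0.52 for E2f2, -0.26 for Mcm2, -0.34 for Mcm3, -0.46 for Mcm4, -0.37 for Mcm7, -0.88 for Cdc6 and -0.35 for Cdt1. Among G2/M genes it was 0.29 for Mki67, 0.21 for Top2a, 0.25 for Ccna2, 0.36 for Ccnb1, 0.45 for Plk1, 0.35 for Cenpe, 0.26 for Tpx2 and 0.33 for Nusap1. It was 0.24 for Ccnd2, 0.49 for Cdkn1a and 0.65 for Cdkn2b. Mcm4 and Cdkn1a were called in every alternative, and 9 of the 19 when any 1 library was left out.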

How the results depend on the processing

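Of 250 tests on members (50 genes, 5 contrasts), 151 were called, and 94 of these in every alternative; no direction of a called member reversed. With upper-quartile scaling, which moved the median of all genes by at most 0.062, S phase genes higher with Pam3 without TGFβ numbered 0 and G2/M genes with an interaction above 0 numbered 4. Without a filter the first count was 2, and under a minimum of 10 counts per library 1 G2/M gene was higher with Pam3 without TGFβ. The covariate and the fit without the 5 libraries with a high mitochondrial share were chosen after seeing the data. With that share as a covariate, 1 G2/M gene was lower with TGFβ without Pam3, and 5 had an interaction above 0. Without the 5 libraries, Pam3 without TGFβ called 744 genes higher and 429 lower, S phase 0 higher and 5 lower, and G2/M 7 lower. Pam3 with TGFβ called 1825 higher and 1545 lower, and G2/M 0 higher and 4 lower. TGFβ without Pam3 called 2725 lower, TGFβ with Pam3 2107 higher, and the interaction 576 above and 226 below 0, with S phase 1 below and G2/M 0 above. This fit holds 7 libraries. Leaving out 1 library gave 0 to 1 S phase and 0 to 1 G2/M genes higher with Pam3 without TGFβ, a median of -0.161 to -0.071 for S phase genes there, 1 to 4 G2/M genes higher with Pam3 with TGFβ (median -0.105 to -0.03), 0 to 1 G2/M genes lower with TGFβ without Pam3, a median of 0.356 to 0.427 for G2/M genes with TGFβ with Pam3, and 1 to 9 G2/M interactions above 0. The replicate block left 244 of 250 member tests on their side of the threshold, moved 5 past it and lost 1, Tk1 for TGFβ with Pam3; same-numbered libraries correlated at -0.174 to 0.3, over 0.1 in 7 of 18 pairs (median 0.0615), and different-numbered libraries were over 0.1 in 8 of 36 (median -0.058), so the numbers are not taken to pair libraries. The fewest counts of a member in any library were 235, and the SE of a member's estimate sets which differences could be shown.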

Other observations

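The genes outside all lists whose log2 CPM over the 12 libraries was most like the mean of the S phase genes were Golm1 (Pearson r 0.994), Fkbp5 (0.989), Sh2b2 (0.985), Sipa1 (0.985) and Cpne5 (0.983). For the G2/M genes they were Pclaf (0.957), Sh2d3c (0.955), Phldb1 (0.954), Btla (0.951) and Slc36a2 (0.951). The 12 libraries fall into 4 groups and share a scaling, so these values describe how alike the patterns across groups are. Pclaf, a PCNA-binding factor, is itself a gene of replicating cells.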
